A study of Mus musculus with 6 samples.

Results

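Amino acids enter cells, leave lysosomes and are exchanged between compartments through carriers of the solute carrier superfamily. The genes described here are those of 5 such families, Slc1, Slc7, Slc36, Slc38 and Slc43, and they were chosen by name. Every protein-coding gene of these families in the expression table was taken, except the cystine carrier gene Slc7a11, which was left out by the rule. There were 39 such genes among the 39171 genes with values. They were compared between untreated B16F10.9 cells, a pigmented mouse melanoma line labelled with the strain C57BL/6, and the same cells kept for 24 h with recombinant mouse interferon-gamma (IFN-gamma) (50 µg/ml, the dose as labelled). RNA of 3 libraries per group was sequenced, and both groups grew in the same supplemented medium. The question of the comparison is which genes differ between treated and untreated melanoma cells.

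As background, the families divide the work. Slc1 holds the sodium-driven carriers of glutamate (Slc1a1, Slc1a2, Slc1a3, Slc1a6 and Slc1a7) and the exchangers of small neutral amino acids (Slc1a4 and Slc1a5). Slc7 holds uniporters of the cationic amino acids arginine, lysine and ornithine, and light chains that reach the membrane only when bound to a heavy chain, encoded by Slc3a1 or Slc3a2. Slc38 carries glutamine and other neutral amino acids together with sodium. Slc36 holds carriers such as Slc36a1, which moves small amino acids together with protons. Slc43a1 and Slc43a2 are facilitators of large neutral amino acids. Some members, such as Slc38a7, Slc38a9 and Slc36a1, sit in the lysosomal membrane, where Slc38a9 reports arginine to the kinase complex mTORC1. Tumour cells and T cells draw on the same extracellular glutamine, leucine and arginine through these carriers.

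Levels are FPKM values, in which the fragments of a gene are divided by its transcript length and by the sequencing total, so that genes may be set beside each other. The authors' deposited table holds 1 FPKM value per gene and group, and no SD or n can be attached to any level below. The words rose and fell are kept for genes that the authors' deposited table gives a q-value under 0.05. The depth of the libraries is unknown, and the labels do not say how separate the triplicate cultures were, so the spread behind these q-values may be technical. A lower level from less RNA per cell and one from fewer cells expressing the gene cannot be told apart in bulk RNA. The 7 melanocyte markers stood between 78.7 and 2871 FPKM in untreated cells. The 10 markers of leukocytes, endothelium, epithelium and fibroblasts in the table stood at 0.197 FPKM or less in untreated and 0.135 FPKM or less in treated cells. Of these, 1 epithelial marker was listed at 0 in untreated cells and 2 leukocyte markers were listed at 0 in treated cells. The IFN-gamma response genes Irf1, Gbp2 and Cd274 stood between 1.399 and 10.2 FPKM in untreated cells and between 122 and 2112 FPKM in treated cells.

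After IFN-gamma, 5 members rose and 4 fell. The 5 members that stood highest after Slc38a6 had ratios between 0.782 and 1.42, and of these Slc38a1 and Slc38a2 rose. The largest rise was that of Slc7a3 (2.52-fold), a cationic carrier gene under 1 FPKM in both groups. Rises of about 2-fold were seen for 2 lysosomal members, Slc36a1 (2.22-fold) and Slc38a9 (2.10-fold), and smaller ones for the glutamine carriers Slc38a1 and Slc38a2. The lysosomal member Slc38a7 was not called. The leucine and glutamine exchangers Slc7a5 and Slc1a5 were not called. Falls were seen for Slc43a1, Slc38a3, Slc38a6 and Slc7a6. Of the 39 members, 22 were tested by the authors, and the other 17 were not tested and stood between 0.00459 and 0.104 FPKM in both groups. The 9 called members make 40.9% of those tested, against 44.4% of all 17021 tested genes. Rises made 22.7% of the tested members and 23.4% of all tested genes, and falls 18.2% and 20.9%. Of the 22 tested members, 3 rose and 3 fell by at least 2-fold. Of all tested genes, 9.69% rose and 8.88% fell by as much (18.6% in either direction). Among these members are Slc38a6, whose level is uncertain as described below, and Slc7a3 and Slc38a3, neither of which reached 1 FPKM. Among the 17 members that reached 1 FPKM in at least 1 group, 4 rose and 3 fell (41.2% called), while 53.2% of all tested genes at that level were called, 27.9% higher and 25.3% lower. Among tested protein-coding genes at that level, the kind the members are, 58.5% were called. The median log2 ratio of IFN-gamma over untreated was 0.19 over the tested members and 0.036 over all tested genes. It was 0.025 over the members of at least 1 FPKM, and it turned to -0.0058 over all tested members with a trend with transcript length, described below, taken out.

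**Figure D1:**
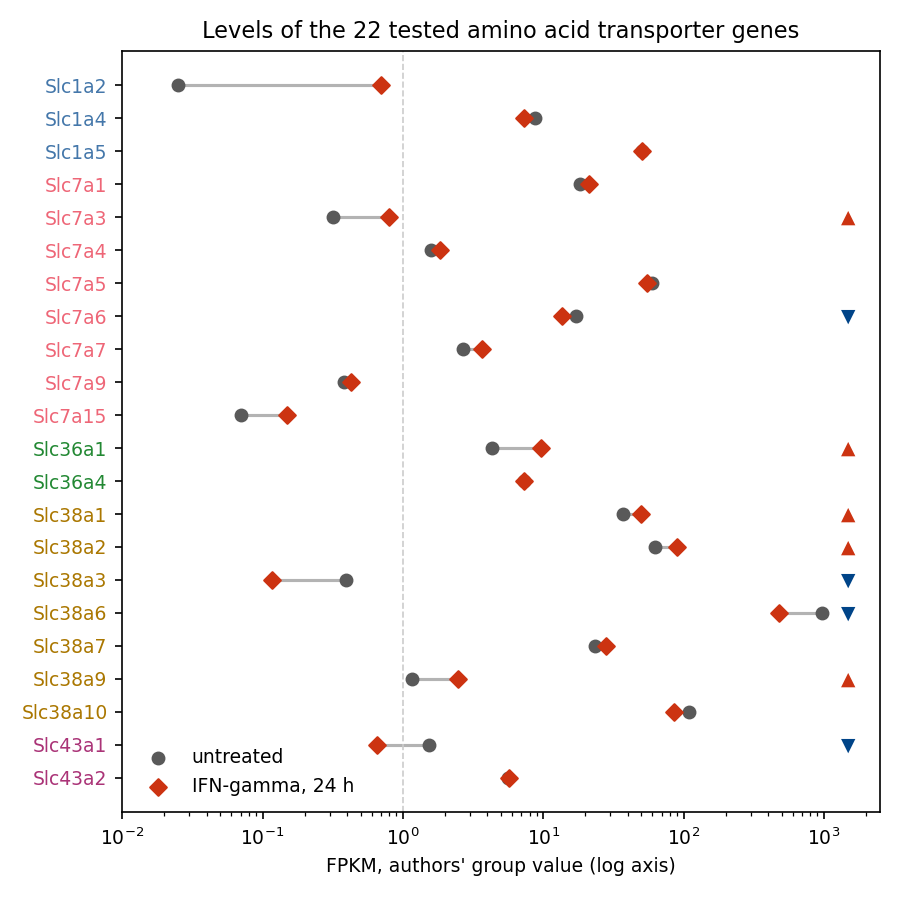
FPKM of the 22 tested members in untreated (grey circles) and IFN-gamma treated cells (red diamonds), 1 group value per gene, on a log axis, ordered and coloured by family. Red upward triangles mark the 5 members that rose and blue downward triangles the 4 that fell, and the dashed line marks 1 FPKM.

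Levels spanned a wide range. The highest listed value was that of Slc38a6, at 975 FPKM untreated and 478 FPKM treated, which is uncertain for the reason given below. Without it, untreated cells were led by Slc38a10 (109 FPKM), Slc38a2 (62.7 FPKM), Slc7a5 (59.2 FPKM), Slc1a5 (50.5 FPKM) and Slc38a1 (37.0 FPKM). Treated cells were led by the same 5 genes, with Slc38a2 (89.1 FPKM) now above Slc38a10 (85.0 FPKM). With no value per library, it cannot be said which neighbours in this order differ beyond their spread. By family and without Slc38a6, Slc38 held 56.7% of the summed FPKM of the members in untreated and 58.6% in treated cells. Slc7 held 24.3% and 22.4%, and Slc1 held 14.4% and 13.6%. Slc36 and Slc43 together stayed small, Slc36 at 2.82% and 3.92% and Slc43 at 1.74% and 1.47%. The summed FPKM of all members without Slc38a6 was 411 untreated and 434 treated, a ratio of 1.05.

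The glutamine carriers held the calls among the abundant genes. Slc38a2 encodes the sodium-coupled carrier SNAT2, which takes up glutamine, alanine and other small neutral amino acids. It rose from 62.7 to 89.1 FPKM, 1.42-fold (q = 0.000529 in the authors' deposited table). Slc38a1, which encodes the related carrier SNAT1, rose from 37.0 to 49.4 FPKM, 1.34-fold (q = 0.0032 in the authors' deposited table). The 2 genes lie side by side on the minus strand of chromosome 15 (GRCm38), Slc38a1 from 96571418 to 96642913 and Slc38a2 from 96687392 to 96699730, with 44.5 kb between them. Slc38a4, a neutral amino acid carrier gene 295 kb beyond Slc38a2, stood at 0.00993 and 0.012 FPKM and was not tested. Both rises are near those of other genes with long transcripts, as the plot of ratio against transcript length shows. With the median of tested genes of like length taken out, the log2 ratio went from 0.51 to 0.10 for Slc38a2 and from 0.42 to -0.05 for Slc38a1. A 1450-nt stretch of the transcripts of Slc38a1 also occurs at 96.6% identity in the gene 4632432E15Rik, and what share of the Slc38a1 fragments comes from that gene was not tested.

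The exchangers that work beside them did not pass the test. Slc1a5 encodes ASCT2, an exchanger through which glutamine enters cells against other neutral amino acids. It stood at 50.5 and 50.9 FPKM, a log2 ratio of 0.01 (q = 0.963 in the authors' deposited table). Slc1a4, the exchanger of alanine, serine and cysteine, stood at 8.76 and 7.31 FPKM (q = 0.0774 in the authors' deposited table). Slc38a3, a glutamine carrier known from liver and kidney, was low in both groups. It fell from 0.392 to 0.117 FPKM, 3.34-fold (q = 0.000187 in the authors' deposited table). It was the only called member absent from the authors' shorter sheet of 6953 significant genes. Slc38a10, at 109 and 85.0 FPKM, was not called (q = 0.0621 in the authors' deposited table). Its transcripts overlap a processed transcript, Gm11769, over 371 nt.

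Slc38a6 carried the highest listed level of all members and a fall, but its value is uncertain and may not be that of the carrier mRNA alone. It went from 975 to 478 FPKM, a log2 ratio of -1.03 (q = 0.000187 in the authors' deposited table). The gene spans 73286779 to 73354049 on the plus strand of chromosome 12 (GRCm38) and has 8 listed transcripts. Of these, 3 hold repeated sequence that occurs in other genes over at least 500 nt at 95% identity or more, and 5 do not. The longest of them, of 3927 nt, ends in an exon of 3531 nt (73310990 to 73314520). Its longest match to another gene ran over 3260 nt at 98.3% identity. In all, 11 other genes of the annotation matched over at least 500 nt, 3 of which are in the expression table. One of these, Ccrn4l, was also high and fell, from 499 to 285 FPKM, with a match of 3240 nt at 98.5% identity. The others did not fall: Rab3gap1 rose from 15.2 to 28.3 FPKM, and D10Wsu102e stood at 10.9 and 11.3 FPKM. A transcript of 3032 nt without that exon has no match longer than 142 nt. How many fragments of Slc38a6 come from the repeated exon was not tested, since the files hold no values per exon.

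Among carriers of large neutral amino acids, the main exchanger was not called and 1 facilitator fell. Slc7a5 encodes LAT1, the exchanger that brings leucine and tryptophan into dividing cells and tumour cells. It stood at 59.2 and 55.1 FPKM, a log2 ratio of -0.10 (q = 0.945 in the authors' deposited table). Slc3a2, which encodes its heavy chain CD98, stood at 90.9 and 87.2 FPKM (q = 0.74 in the authors' deposited table). The call for Slc7a5 is weakly informed. The gene itself spans 121881150 to 121907694 on the minus strand of chromosome 8 (GRCm38), but the deposited locus runs over 4.44 Mb and holds 182 other genes. Of the 79 of them that were tested, 2 were called (2.53%), though 19 differed at least 2-fold. Slc43a1, which encodes the facilitator LAT3, fell from 1.52 to 0.657 FPKM, 2.32-fold (q = 0.000187 in the authors' deposited table). Its gene spans 84838850 to 84863594 on the plus strand of chromosome 2 (GRCm38). Slc43a2, which encodes LAT4, stood at 5.62 and 5.72 FPKM (q = 0.961 in the authors' deposited table), and 674 nt of its transcripts are shared with the gene Gm45606. Slc7a8, the second LAT light chain, was not tested, at 0.0206 and 0.0233 FPKM, and neither was Slc43a3, a nucleobase carrier gene, at 0.023 and 0.0127 FPKM.

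Among carriers of cationic amino acids, through which arginine enters cells, 1 rare uniporter gene rose, 1 light chain gene fell, and the abundant uniporter gene was not called. Slc7a1, which encodes the uniporter CAT1, stood at 18.3 and 21.1 FPKM and was not called (q = 0.19 in the authors' deposited table). Slc7a3, which encodes CAT3, rose from 0.316 to 0.796 FPKM, 2.52-fold (q = 0.0376 in the authors' deposited table). At under 1 FPKM in both groups, it stayed far below Slc7a1. Slc7a2, which encodes CAT2, the carrier that supplies arginine to activated macrophages, stood at 0.0159 and 0.0267 FPKM and was not tested. Slc7a6 and Slc7a7 encode the y+L light chains, which export cationic amino acids in exchange for neutral ones and sodium. Slc7a6 fell from 17.2 to 13.7 FPKM, 1.26-fold (q = 0.0188 in the authors' deposited table). Slc7a7 stood at 2.68 and 3.67 FPKM and was not called (q = 0.315 in the authors' deposited table). Its transcripts overlap those of Oxa1l over 232 nt. Slc7a4, a relative of the cationic carriers, stood at 1.60 and 1.85 FPKM (q = 0.475 in the authors' deposited table), and 202 nt of its transcripts are shared with P2rx6.

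The lysosomal and Slc36 carriers held the largest rises of the members above 1 FPKM. Slc36a1 encodes PAT1, which exports small neutral amino acids from lysosomes with protons and also acts at the cell surface. It rose from 4.32 to 9.61 FPKM, 2.22-fold (q = 0.000187 in the authors' deposited table), and its gene spans 55204350 to 55236330 on the plus strand of chromosome 11 (GRCm38). Slc38a9 rose from 1.17 to 2.45 FPKM, 2.10-fold (q = 0.000187 in the authors' deposited table), and its gene spans 112660751 to 112738749 on the plus strand of chromosome 13. A stretch of 183 nt of its transcripts is shared with the gene Gm47827. With the median of tested genes of like transcript length taken out, the log2 ratio of Slc36a1 went from 1.15 to 0.92 and that of Slc38a9 from 1.07 to 0.44. Slc38a7, which encodes the lysosomal glutamine exporter SNAT7, stood at 23.2 and 28.1 FPKM and was not called (q = 0.221 in the authors' deposited table). Slc36a4, which encodes PAT4, a carrier of proline and tryptophan, stood at 7.25 and 7.35 FPKM (q = 0.917 in the authors' deposited table). Slc36a2 and Slc36a3, the chromosome 11 neighbours of Slc36a1, were not tested and stood at 0.0377 FPKM or less.

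The glutamate carriers of Slc1 and the epithelial members were at or near the bottom of the range. Of the glutamate carriers, Slc1a1, Slc1a3, Slc1a6 and Slc1a7 were not tested and stood at 0.0717 FPKM or less. Slc1a2, which encodes the astroglial carrier GLT-1, was named after its values were seen. It stood at 0.0251 and 0.699 FPKM, the largest log2 ratio of the tested members at 4.80, and was not called (q = 0.0898 in the authors' deposited table). An antisense gene, Gm13872, shares its locus, and the library kit does not mark strand. Slc7a9, the light chain that pairs with Slc3a1 in kidney and gut, stood at 0.381 and 0.43 FPKM, and Slc7a15 at 0.0698 and 0.149 FPKM, neither of them called. The remaining untested members were Slc7a10, Slc7a12, Slc7a13, Slc7a14, Slc38a5, Slc38a8 and Slc38a11, all at 0.104 FPKM or less.

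**Figure D2:**
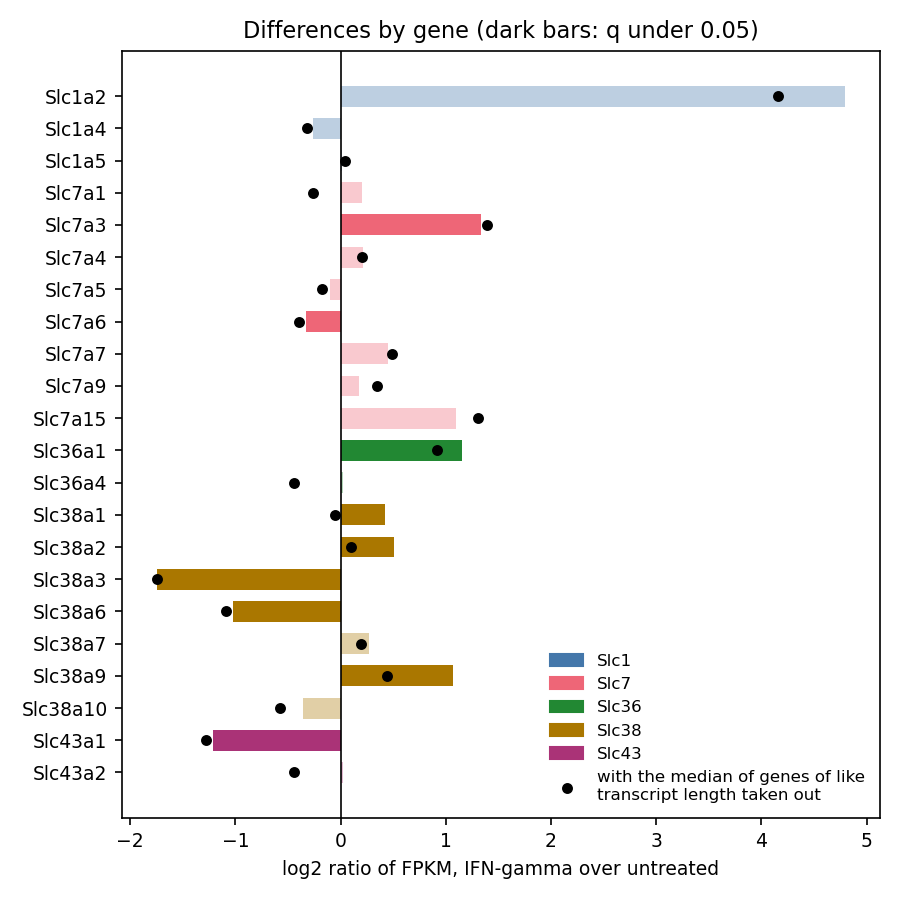
log2 ratio of FPKM, IFN-gamma over untreated, for the 22 tested members by family, with dark bars for the 9 called members and pale bars for the others. Black points give the ratio with the median of tested genes of like transcript length taken out, which moves Slc38a1 from 0.42 to -0.05 and leaves Slc43a1 (-1.21 to -1.28) nearly in place.

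Transcript length moved with the ratios of all genes and touches the reading of the small rises. Over 20 bins of transcript length, the median log2 ratio of tested genes was -0.07 in the shortest bin (51 to 193 nt), -0.65 in the next (194 to 471 nt) and 0.64 in the bin of the longest transcripts, from 7675 nt. The tested members were long, with a median of 3926.5 nt against 2753 nt for all tested genes. Their median log2 ratio went from 0.19 to -0.0058 with the length trend taken out, and that of the tested Slc38 members turned from 0.27 to -0.05. The falls of Slc43a1, Slc38a3 and Slc7a6 kept their size, at -1.28, -1.75 and -0.39. What lies behind the trend was not tested.

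**Figure D3:**
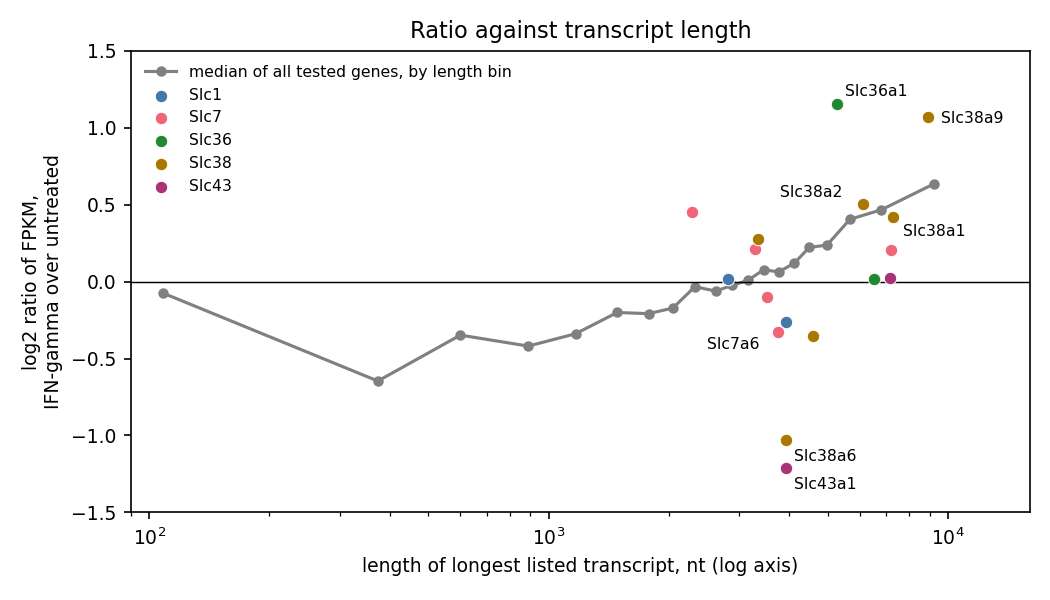
log2 ratio of FPKM, IFN-gamma over untreated, against the length of the longest listed transcript (log axis) for the 17 members of at least 1 FPKM, coloured by family, with called members named. The grey line joins the medians of all tested genes in 20 length bins, and Slc38a1 and Slc38a2 lie close to it (Slc38a1 just below), while Slc36a1 lies above and Slc43a1 below.

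RefSeq promoters (GRCm38.p6) were listed for 28 of the 39 members, with 39 start sites in all. The 250 bases before the start are shown for 2 members of the lysosome that rose together, for the glutamine carrier with the highest level that rose, and for the facilitator that fell, in lower case with matched motifs in capitals. The windows lie at chr11:55204090-55204339 (plus strand, Slc36a1), chr13:112660516-112660765 (plus strand, Slc38a9), chr15:96699729-96699978 (minus strand, Slc38a2) and chr2:84840073-84840322 (plus strand, Slc43a1).
Slc36a1 promoter: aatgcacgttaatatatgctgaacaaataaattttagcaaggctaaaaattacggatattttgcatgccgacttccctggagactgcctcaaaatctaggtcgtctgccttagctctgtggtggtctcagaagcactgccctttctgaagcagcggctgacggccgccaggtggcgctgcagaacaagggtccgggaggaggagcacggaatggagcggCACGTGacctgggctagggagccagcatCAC
Slc38a9 promoter: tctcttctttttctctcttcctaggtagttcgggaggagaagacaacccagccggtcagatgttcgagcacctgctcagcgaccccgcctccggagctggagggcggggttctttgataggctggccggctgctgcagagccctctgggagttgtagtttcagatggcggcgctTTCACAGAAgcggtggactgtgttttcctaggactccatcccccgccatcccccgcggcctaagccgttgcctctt
Slc38a2 promoter: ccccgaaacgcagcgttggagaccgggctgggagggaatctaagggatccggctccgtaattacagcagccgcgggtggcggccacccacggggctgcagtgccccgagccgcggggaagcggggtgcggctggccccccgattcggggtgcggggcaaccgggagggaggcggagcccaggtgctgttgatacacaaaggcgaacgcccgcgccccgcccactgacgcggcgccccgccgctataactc
Slc43a1 promoter: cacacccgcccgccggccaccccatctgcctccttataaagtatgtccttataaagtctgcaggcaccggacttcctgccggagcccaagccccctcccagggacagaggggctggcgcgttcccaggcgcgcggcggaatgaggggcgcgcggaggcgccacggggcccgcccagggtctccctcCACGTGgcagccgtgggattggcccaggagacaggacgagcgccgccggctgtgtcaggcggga
The motifs searched on both strands over the 300 bases from 250 before the start to 50 after were the IFN-gamma activated site TTCNNNGAA, the interferon-stimulated response element (ISRE), the amino acid response (CARE) letters TGATGNAAN and the E-box CACGTG. The last capitals of the Slc36a1 window are the first bases of a second E-box that runs over the start. Slc38a9 holds 1 match to TTCNNNGAA, beginning 76 bases before the start, and Slc43a1 holds 1 E-box, beginning 64 bases before it. Slc38a2 holds none of the 4 motifs in this window. Among all 39 member promoters, TTCNNNGAA occurred in 3 (7.69%), against 8.3% of the 32851 promoters of this length. The ISRE letters occurred in 0, against 3.44%, and TGATGNAAN in 3 (7.69%), against 3.95%. CACGTG occurred in 7 (17.9%), against 7.15%. Of the 6 called members with a listed promoter, 2 held it, Slc36a1, which rose, and Slc43a1, which fell. The other members that held it were Slc38a7, not called, and the untested Slc1a6, Slc1a7, Slc7a14 and Slc38a5. Start sites of 1 gene can overlap and share a match, and a match is a run of letters, not a shown binding site.

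Other carriers of amino acids outside these families were counted from lists chosen by name. Of 13 genes of the Slc6 family and other plasma membrane carriers, 8 were tested, of which 5 rose and 0 fell (62.5% called, against 44.4% of all tested genes). Slc6a9, a glycine carrier gene, shares its locus with 3 other genes. It rose from 9.99 to 31.3 FPKM, 3.13-fold (q = 0.000187 in the authors' deposited table). Slc6a15, a carrier of branched-chain amino acids and proline, rose from 0.737 to 3.48 FPKM, 4.72-fold, with the same q. Slc6a6, the taurine carrier gene, rose from 56.1 to 69.7 FPKM (q = 0.0376 in the authors' deposited table), a log2 ratio of 0.31 that turns to -0.09 with the length trend taken out. Slc6a7 and Slc6a18 rose while staying at 0.277 FPKM or less. Among mitochondrial carriers, 3 of 10 tested genes rose and 6 fell (90% called). Of tested genes of at least 1 FPKM, a level that all 10 reach, 53.2% were called, and 58.5% of the protein-coding ones. The glutamate carrier gene Slc25a22 rose from 9.81 to 27.9 FPKM, and the aspartate-glutamate carrier gene Slc25a12 from 41.7 to 69.4 FPKM (log2 ratio 0.74, or 0.27 with the length trend taken out). Its paralog Slc25a13 fell from 39.0 to 29.6 FPKM, the basic amino acid carrier gene Slc25a29 from 5.65 to 2.27 FPKM, and the serine carrier gene Sfxn1 from 39.2 to 28.5 FPKM. Of the genes named like Sfxn1, Sfxn2 fell from 6.83 to 5.51 FPKM and Sfxn3 rose from 5.80 to 13.8 FPKM. Of 7 further lysosomal carriers 2 rose and 0 fell (28.6% called, against 44.4% of all tested genes). These were Mfsd1, a dipeptide carrier gene, from 26.3 to 43.2 FPKM, and the sialic acid carrier gene Slc17a5 from 5.97 to 8.64 FPKM. The cystine exporter gene Ctns, at 11.9 and 13.9 FPKM, was not called.

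Genes of the response to amino acid shortage fell more often than they rose, while Slc7a5 and Slc7a1 were not called and Slc38a2 rose. In this response the kinase GCN2, encoded by Eif2ak4, senses uncharged tRNA and raises translation of the transcription factor ATF4, whose known targets include enzymes of serine and asparagine synthesis and carriers such as Slc7a5, Slc7a1 and Slc38a2. Of 20 tested genes of this list, 2 rose and 12 fell, with a median log2 ratio of -0.50. The called share was 70%, against 44.4% of all tested genes (23.4% higher and 20.9% lower). Of tested genes of at least 1 FPKM, a level that all 20 reach, 53.2% were called, and 58.5% of the protein-coding ones. Atf4 itself fell from 209 to 116 FPKM. All 3 serine synthesis genes fell: Phgdh from 311 to 70.4 FPKM, Psat1 from 177 to 86.8 FPKM and Psph from 91.6 to 31.3 FPKM. Chac1, which degrades glutathione, fell from 36.1 to 7.43 FPKM, and Trib3 went down from 34.9 to 13.9 FPKM. Asns, the asparagine synthetase gene, stood at 101 and 80.5 FPKM and was not called, while the stress factor genes Ddit3 (36.5 to 62.9 FPKM) and Nupr1 (6.498 to 15.1 FPKM) rose. Set beside these, the log2 ratios of Slc7a5, Slc7a1 and Slc38a2 were -0.10, 0.21 and 0.51, and -0.18, -0.26 and 0.10 with the length trend taken out, while the median of the list went from -0.50 to -0.64. The call of Slc7a5 is the weakly informed one described above. No test of the difference between enzymes and carriers was made.

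**Figure D4:**
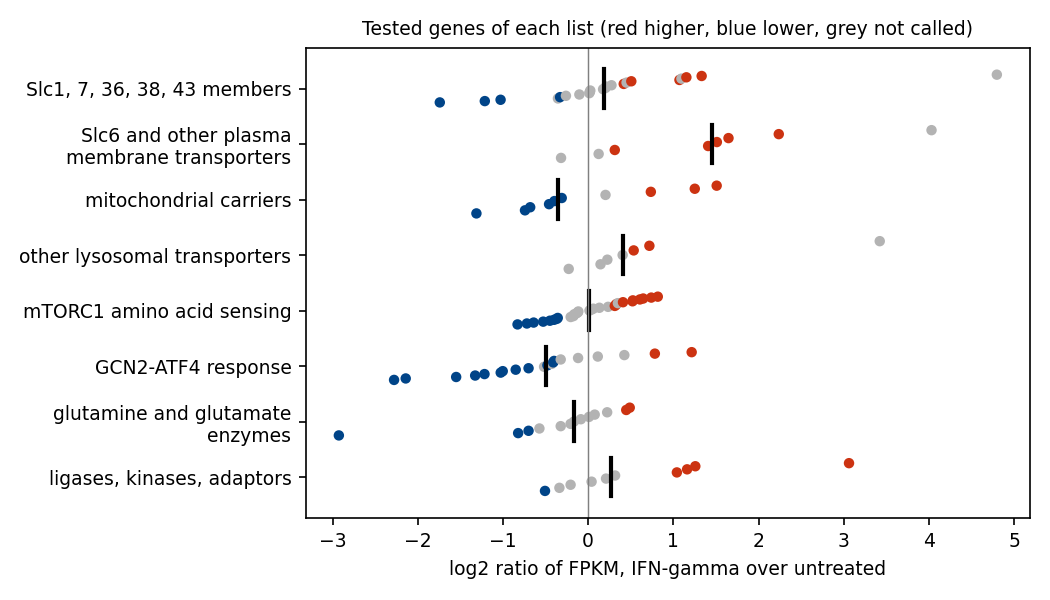
log2 ratio of FPKM, IFN-gamma over untreated, for the tested genes of the members and of 7 further lists, 1 point per gene, red where the gene rose, blue where it fell and grey where it was not called. Black bars mark list medians, 0.19 for the members and -0.50 for the GCN2-ATF4 response. The members' median turns to -0.0058 with the length trend taken out.

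The partners of the lysosomal members in amino acid sensing went both ways. Of 31 genes of mTORC1 and its amino acid inputs, 10 rose and 8 fell (58.1% called). Of tested genes of at least 1 FPKM, a level that all 31 reach, 53.2% were called, and 58.5% of the protein-coding ones. The median log2 ratio of the 31 was 0.016, which turns to -0.09 with the length trend taken out. Rptor, the scaffold of mTORC1, rose from 9.78 to 15.3 FPKM, a log2 ratio of 0.65 that went to 0.18 with the length trend taken out. Of the Ragulator genes, whose complex binds Slc38a9, Lamtor1 (128 to 77.8 FPKM), Lamtor3, Lamtor4 and Lamtor5 fell, while Lamtor2 (82.8 and 84.9 FPKM) was among the uncalled genes. With the length trend taken out, the log2 ratio of Lamtor4 turned to 0.05 and that of Lamtor5 went to -0.03, against -0.55 for Lamtor1, -0.47 for Lamtor3 and 0.38 for Lamtor2. Rragd, a Rag GTPase gene, fell from 11.01 to 6.198 FPKM, and the leucine sensor gene Sesn2 from 9.09 to 6.89 FPKM. The other Rag genes, Rragc (63.03 and 58.18 FPKM), Rraga (34.03 and 34.4 FPKM) and Rragb, were not called. Of the genes named like Sesn2, Sesn1 also fell, while Sesn3 rose from 9.77 to 14.05 FPKM. The log2 ratio of Sesn3 turned from 0.52 to -0.11 with the length trend taken out. Among enzymes of glutamine and glutamate, 2 of 13 rose and 3 fell (38.5% called, against 53.2% of all tested genes of at least 1 FPKM). The lists overlap: Gpt2 and Asns of this list, and Sesn2 of the list before it, were also counted in the response to amino acid shortage. Gls2, which splits glutamine, fell from 3.64 to 0.478 FPKM. The glutamine synthetase gene Glul, at 45.1 and 42.5 FPKM, was not called, while Got1, an aspartate aminotransferase gene, rose from 63.8 to 89.5 FPKM and Gpt2, an alanine aminotransferase gene, fell from 14.3 to 8.83 FPKM. Among ligases, kinases and adaptors that act on carriers, 4 of 10 rose and 1 fell (50% called). Of all tested genes 44.4% were called, and 53.2% of those of at least 1 FPKM, a level that 9 of the 10 reach. The ubiquitin ligase gene Nedd4l rose from 9.85 to 23.6 FPKM (log2 ratio 1.26, or 0.62 with the length trend taken out) and its inhibitor, the kinase gene Sgk1, from 2.27 to 4.67 FPKM.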

How the data were processed

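RNA of B16F10.9 cells was sequenced as 3 untreated and 3 IFN-gamma treated libraries (TruSeq RNA V2, with no strand mark), per the labels' protocols. The submitters' processing notes name GRCm38, TopHat2 2.0.11, Cufflinks 2.2.1 and Cuffdiff. No source used here gives parameters or the annotation release. The authors deposited 1 FPKM value per gene and group, with a p-value and q-value and a test score by the authors. The linear fold or ratio and the log2 ratio in the deposited tables were not used, and log2 ratios were recomputed from FPKM with no pseudocount. The sample cells of the table name B16 and IFN and were followed over its heading, which mentions infection.

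The planned model on library values was replaced by the authors' q, the branch written for tables of group values. Members and lists were chosen with earlier results of these data known. Named genes are all members that reach 1 FPKM in either group, called members below it, and others where marked. Some listed genes are not reported here. Gene positions and the longest transcript per gene came from GENCODE release M21 (GRCm38), with a length for 98.2% of tested genes. The length trend was taken out by subtracting the median log2 ratio of tested genes in the same of 20 length bins, a step tested on simulated data. Calls were not recomputed. Matches between transcripts were sought with blastn 2.17.0 (at least 95% identity over 100 nt). Cufflinks divides fragments between overlapping genes, and 6 of the 22 tested members share their locus with another gene. Alternatives were other thresholds, pseudocounts, centring, length, and leaving out shared loci or Slc38a6. Depth per sample is unknown. Python 3.11.15, pandas 2.3.3 and matplotlib 3.10.9 were used.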

Additional observations from a re-analysis of the deposited data

How the results depend on the processing

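The count of members that rose was 5 and stood at 4 or 5 with q under 0.01, with members of at least 1 FPKM, without shared loci and, chosen after seeing the data, without Slc38a6, and at 3 with a change of at least 2-fold. The count of falls was 4 and stood at 3 or 4 under all of these. At q under 0.01 Slc7a6 (-0.33) and Slc7a3 (1.33) lost their calls. The median log2 ratio of 0.19 went to 0.077 with a pseudocount of 1 FPKM, to 0.025 over members of at least 1 FPKM, where low members drop out, and to -0.0058 with the length trend taken out. Ratios changed sign with the length trend taken out for Slc38a1 (-0.049), Slc7a1 (-0.26), Slc36a4 (-0.45) and Slc43a2 (-0.44), and with centring for Slc1a5 (-0.052), Slc36a4 (-0.045) and Slc43a2 (-0.040). Of these, Slc38a1 alone was called. No paired analysis was possible because the deposited table holds 1 value per group, and for the same reason no replicate could be left out and limma was not run.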
